A study of Folsomia candida with 36 samples.

Results

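Springtails held for 48 h on soil with imidacloprid were compared with springtails held for 48 h on the same soil without it. The comparison rests on 6 of the 36 RNA sequencing libraries of a time course, 3 from exposed and 3 from control animals, chosen by the treatment and time in their labels. The animals were Folsomia candida of the Berlin strain, labelled wild type. Each library came from the whole bodies of a pool, and pools of 70 animals were put into glass jars of LUFA2.2, a natural soil. The soil of the exposed pools held imidacloprid at 0.25 mg per kg dry soil, given as the EC20, the concentration that lowers reproduction by 20%, and that of the controls was mixed with water alone. The exposed libraries are replicates 3, 5 and 6 of the titles and the controls replicates 2, 4 and 6. Nothing in the labels says whether jars were set up separately, so p-values measure the spread between libraries, which may be partly technical. In the main test that spread was taken from all 36 libraries of the time course, not from these 6 alone. Whole bodies were sequenced, so a change in the number of cells of a type and a change in RNA per cell cannot be told apart.

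Imidacloprid is a neonicotinoid insecticide. It binds nicotinic acetylcholine receptors, the ion channels by which acetylcholine excites nerve cells in insects, and keeps them active because acetylcholinesterase does not break it down. Springtails are wingless soil hexapods outside the insects, and Folsomia candida is a standard species of soil toxicity tests. Genes carry the identifiers of the deposited table, which pairs them with no product, so the roles of the genes below cannot be given, and the gene lists for detoxification, acetylcholine signalling, heat shock, cuticle, yolk and clock genes could not be applied.

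Total counts per library ranged from 23755778 to 32149171. Levels are given as CPM, counts scaled to a common library total, with library sizes adjusted by the trimmed mean of M-values (TMM). A gene with 3 counts stood at 0.101 to 0.121 CPM in these 6 libraries, which is taken as the floor for counting error. Of 28734 gene models, 19600 had enough counts to be tested.

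Some libraries stood apart before any comparison of treatments. Imidacloprid replicate 5 differed from each of the 3 controls by at least 2-fold in 36.8%, 42.6% and 44.1% of tested genes, and from imidacloprid replicate 3 in 40.3%. Every other pair of libraries that did not include replicate 5 differed in 9.9% to 19.7%. The lowest of these shares, 9.9%, was between control replicate 4 and imidacloprid replicate 3, libraries of different treatments. The TMM factor of replicate 5 was 0.890, against 0.982 to 1.10 in the others, and its 10 genes with the most counts held 15.0% of its reads, against 9.47% to 13.2%. The median standard deviation (SD) of log2 CPM within a group was 0.289 in the controls and 0.506 in the exposed libraries, and it was larger in the exposed libraries for 70.1% of genes.

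**Figure D1:**
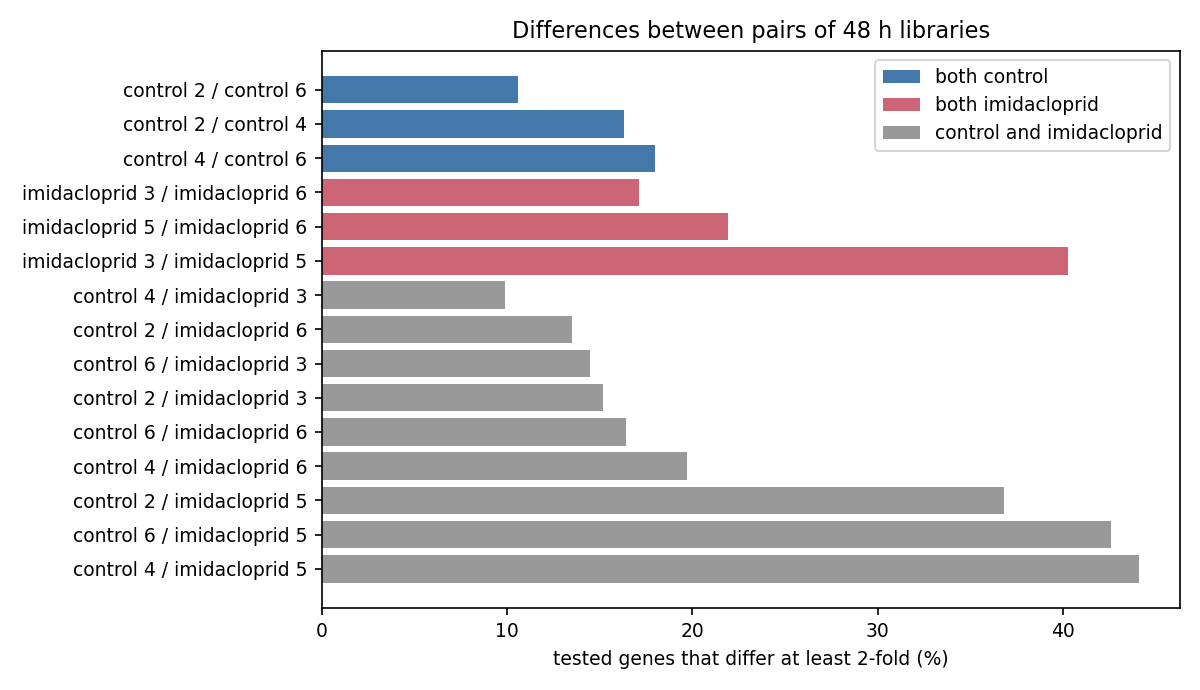
Share of the 19600 tested genes that differed by at least 2-fold (percent, x axis) for each of the 15 pairs of 48 h libraries (y axis; numbers are replicates), coloured by whether both were control, both imidacloprid or one of each. The long bars all contain imidacloprid replicate 5, while control replicate 4 and imidacloprid replicate 3 form the shortest bar at 9.9%.

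The second feature lay in the controls. A group of 108 genes that varied together over the time course had a mean log2 CPM of 2.24 in control replicate 2 and 3.20 in control replicate 6. In control replicate 4 it was -2.60, and in imidacloprid replicates 3, 5 and 6 it was -3.15, -2.85 and -3.0. The group was thus high in 2 of 3 controls and low in the other control and in all 3 exposed libraries.

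The main test asked which genes differed between exposed and control animals at 48 h by more than the spread between libraries. At 48 h, 7 genes were higher with imidacloprid and 0 were lower (edgeR quasi-likelihood test, Benjamini-Hochberg adjusted p under 0.05), which is 0.0357% of tested genes. At an unadjusted p under 0.05, edgeR gave 1830 higher (9.34%) and 989 lower genes (5.05%), 14.4% of tested genes in all. This balance depended on the scaling: the median log2 fold change of tested genes was 0.113, it moved by -0.126 with DESeq2 size factors, and the numbers then became 950 higher and 1500 lower. DESeq2 called 22 higher and 31 lower genes, limma-voom 5 higher and 0 lower. With weights for the quality of each library, limma-voom called 1764 higher and 1893 lower. A fit of the 6 libraries alone called none, with 678 genes at an unadjusted p under 0.05.

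In each of the 7 called genes all 3 exposed libraries lay above all 3 controls. Over all tested genes this held for 1462 (7.46%), and 857 (4.37%) had all exposed libraries below all controls. Of these genes, 4 were also called at 60 and 72 h, where 4 higher genes were called at each time (0.0204%), and 3 were called at none of the other times. Since the lists are so short, all 7 are named, although the third and later ones were chosen after their values were seen.

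Fcan01_17452 stood at 25.3, 14.1 and 24.0 CPM in control replicates 2, 4 and 6. In imidacloprid replicates 3, 5 and 6 it stood at 85.9, 310 and 208 CPM. The lowest exposed library was thus well above the highest control. Its log2 fold change was 3.25 ± 0.43 (standard error, SE), or 9.54-fold (edgeR adjusted p = 0.000351).

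Fcan01_17957 stood at 32.8, 42.5 and 34.8 CPM in the controls and at 115, 376 and 282 CPM in the exposed libraries, in the same order of replicates. Replicate 3 was again the lowest of the exposed and replicate 5 the highest, with no overlap. The log2 fold change was 2.81 ± 0.35 (SE), or 7.01-fold (edgeR adjusted p = 0.000201).

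Fcan01_08638 had 3.58, 3.66 and 3.68 CPM in the controls and 12.1, 25.7 and 19.6 CPM with imidacloprid. Its controls were close together, with an SD of 0.0531 CPM, and the exposed libraries were spread over an SD of 6.82 CPM. The log2 fold change was 2.39 ± 0.35 (SE), or 5.25-fold (edgeR adjusted p = 0.00112).

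Fcan01_10767 had 1.29, 1.68 and 1.26 CPM in the controls, from 32 to 50 counts, and 4.73, 9.86 and 6.89 CPM with imidacloprid. The groups did not overlap. The log2 fold change was 2.34 ± 0.43 (SE), or 5.07-fold (edgeR adjusted p = 0.0254).

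Of the genes called at no other time, Fcan01_01431 stood at 158, 111 and 133 CPM in the controls and at 323, 1160 and 735 CPM in the exposed libraries. Its exposed libraries differed more from each other than did its controls, but the lowest was above every control. The log2 fold change was 2.46 ± 0.39 (SE), or 5.51-fold (edgeR adjusted p = 0.00407).

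Fcan01_27829 had 1.53, 0.773 and 1.53 CPM in the controls and 2.62, 19.8 and 12.1 CPM with imidacloprid. Replicate 3 lay close to the controls, and replicates 5 and 6 carried most of the difference. The log2 fold change was 3.17 ± 0.58 (SE), or 9.00-fold (edgeR adjusted p = 0.0254).

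Fcan01_17273 had 39.2, 36.7 and 38.2 CPM in the controls and 66.3, 235 and 124 CPM in the exposed libraries. Replicate 3 was again the nearest to the controls, above the highest of them by less than 2-fold, as it was in Fcan01_27829. The log2 fold change was 1.90 ± 0.34 (SE), or 3.73-fold (edgeR adjusted p = 0.0254).

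**Figure D2:**
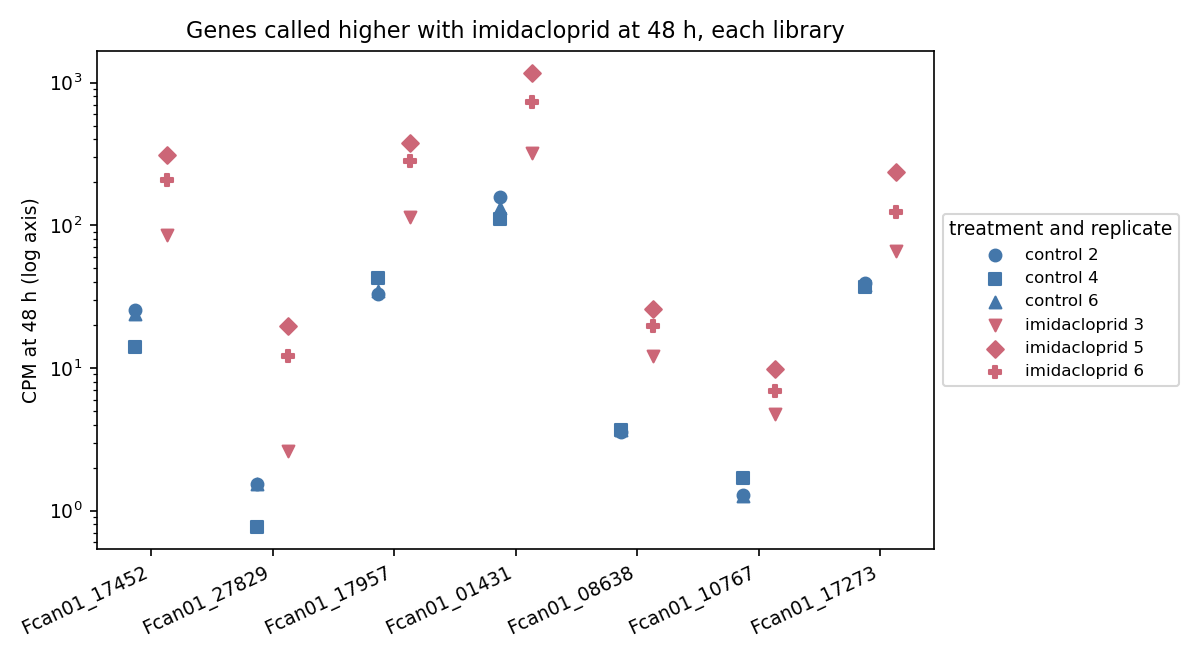
CPM at 48 h (y axis, log scale) of the 7 genes called higher with imidacloprid (x axis), 1 point per library, with a marker for each replicate. In every gene the 3 exposed libraries lie above the controls, with replicate 5 highest and replicate 3 lowest, as in Fcan01_17957 at 376 and 115 CPM.

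Among the exposed libraries, replicate 5 was the furthest from the controls and replicate 3 the nearest in 7 of the 7 genes. This order was common at 48 h. Of all tested genes with a higher mean in exposed libraries, replicate 5 was the furthest in 73.8% and replicate 3 the nearest in 67.5%. The other values by which replicate 5 stood apart are given above, and their part in these differences was not tested.

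Leaving out each of the 6 libraries in turn separated the calls. Fcan01_17452, Fcan01_17957 and Fcan01_08638 were called without any of the 6, with log2 fold changes of 2.76 to 3.57, 2.39 to 3.13 and 2.09 to 2.60. Fcan01_01431 was called in 3 of 6 runs and lost its call without control replicate 4 (edgeR adjusted p = 0.133), control replicate 6 (0.0669) or imidacloprid replicate 5 (0.0979). Fcan01_27829, Fcan01_10767 and Fcan01_17273 were called in 1 of 6 runs, the one without imidacloprid replicate 3. Their log2 fold changes stayed positive, at 2.48 to 3.59, 2.01 to 2.53 and 1.29 to 2.20, against 3.17, 2.34 and 1.90 with all libraries. With fewer libraries a difference of the same size is called less easily. A lost call alone therefore does not show that the difference rested on the library left out. Without both controls in which the 108 co-varying genes were high, a run added after the data were seen that left 1 control, none of the 7 kept its call, with log2 fold changes from 1.95 in Fcan01_17273 to 3.89 in Fcan01_27829. With the level of the 108 genes in the model, all 7 were called, among 15 higher genes.

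The other time points had libraries and controls of their own. At 60 h and at 72 h all 7 genes were higher with imidacloprid by at least 2-fold and at an unadjusted p under 0.05, whereas 1.03% and 2.30% of all genes higher at 48 h were higher at that p at 60 and 72 h. At 36 h all 7 were higher, 5 of them at that p, and at 24 h all 7 were higher, 4 of them at that p, against 3.02% and 0.767% of all genes higher at 48 h. At 12 h, 4 of 7 had a positive difference and none reached an unadjusted p under 0.05.

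For Fcan01_01431 the 12 h means were 229 ± 79.9 CPM (SD, n = 3) in control and 218 ± 84.9 CPM in exposed animals. At 36 h these were 241 ± 39.9 and 380 ± 138, and at 48 h 134 ± 23.9 and 739 ± 418. At 60 h they were 231 ± 67.2 and 897 ± 382, and at 72 h 217 ± 69.5 and 821 ± 108. The exposed libraries lay above all controls at 24, 48, 60 and 72 h and overlapped them at 12 and 36 h. The call was missed at 60 h (edgeR adjusted p = 0.0819) and 72 h (0.0874), where the log2 fold changes were 1.96 ± 0.38 and 1.92 ± 0.38 (SE).

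Fcan01_17273 differed by 0.00 ± 0.33 (SE) in log2 units at 12 h, 0.32 ± 0.33 at 24 h and 0.05 ± 0.33 at 36 h. It then differed by 1.90 ± 0.34 at 48 h, 1.24 ± 0.34 at 60 h and 1.14 ± 0.34 at 72 h. In controls its level was 82.0 ± 11.2 CPM (SD, n = 3) at 36 h, 38 ± 1.30 at 48 h and 59.5 ± 11.8 at 60 h. In exposed animals it was 85.0 ± 28.6, 142 ± 85.8 and 140 ± 53.8 CPM at those times. The 48 h controls were thus the lowest of the 3 control groups, and the exposed level was as high at 60 h as at 48 h.

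Fcan01_27829 was furthest from its controls at 48 h. Its exposed mean was 5.70 ± 2.90 CPM (SD, n = 3) at 36 h, 11.5 ± 8.60 at 48 h and 6.04 ± 3.89 at 60 h, and the control mean was 2.55 ± 0.955 at 36 h and 2.23 ± 0.302 at 60 h. The exposed libraries overlapped the controls at 36 and 60 h, and not at 48 or 72 h.

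**Figure D3:**
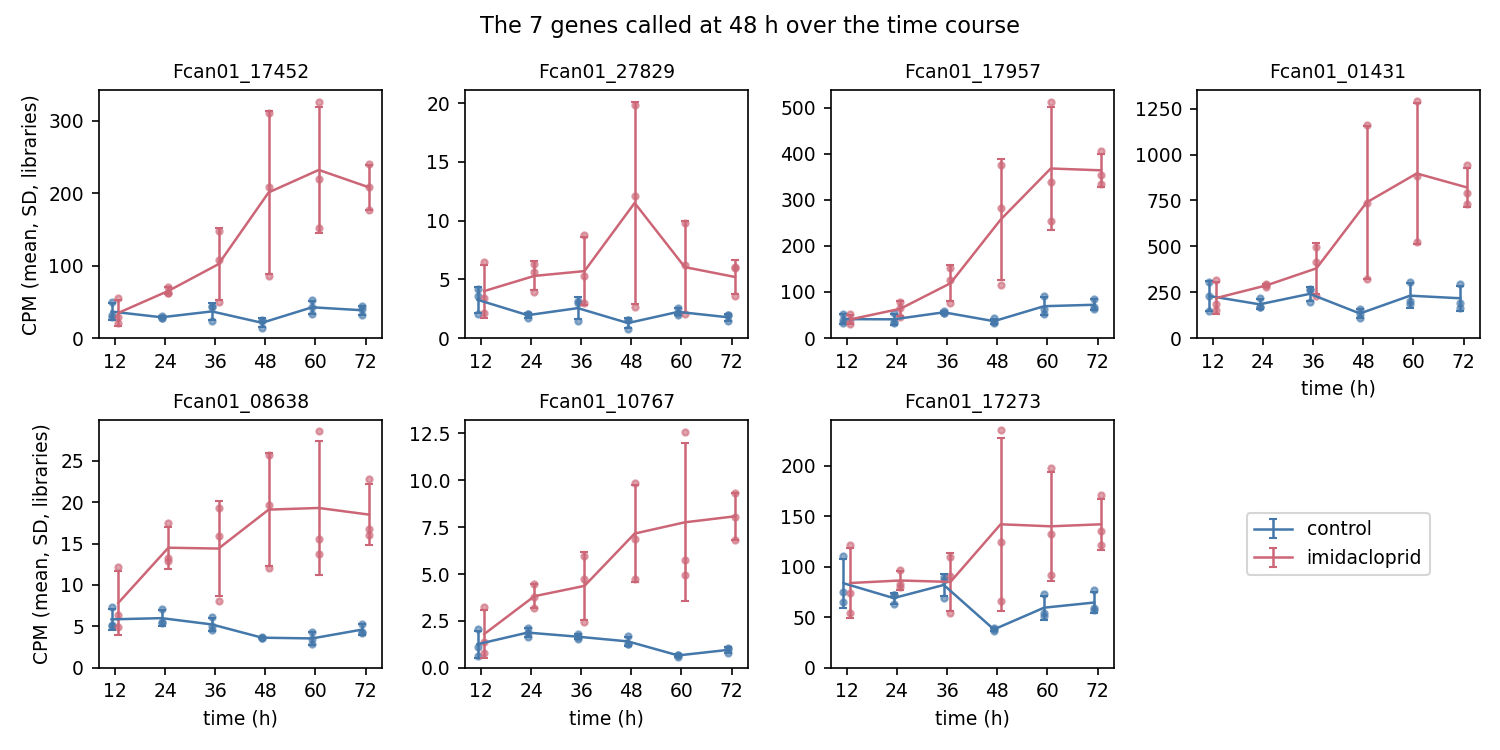
CPM (y axis) of the 7 genes called at 48 h against time (h, x axis) in control and exposed animals, with the mean and SD of 3 libraries and each library as a point. The treatments run together at 12 h and the 3 exposed libraries lie above the controls at 48 and 72 h, while Fcan01_27829 overlaps at 60 h and has its highest exposed mean, 11.5 CPM, at 48 h.

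Both arms were also read against their own neighbours in time, a comparison added after the data were seen. For the 7 genes the log2 difference of 48 h from the mean of 36 and 60 h was -0.90, -0.90, -0.76, -0.81, -0.25, 0.43 and -0.88 in controls and 0.39, 0.98, 0.30, 0.34, 0.20, 0.30 and 0.38 in exposed animals. These follow the order Fcan01_17452, Fcan01_27829, Fcan01_17957, Fcan01_01431, Fcan01_08638, Fcan01_10767 and Fcan01_17273. None of these differences passed the test (edgeR adjusted p = 0.181 for Fcan01_17273 in the controls). Over all genes edgeR called 0 in either arm. At an unadjusted p under 0.05 there were 1483 genes higher and 2643 lower in controls at 48 h, and 310 higher and 94 lower in exposed animals. No other tool was run on this comparison.

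Whether the response at 48 h differed from that at the other times was tested directly, as the 48 h effect minus the mean effect at 12, 24, 36, 60 and 72 h. EdgeR called 0 genes (0%), with a smallest adjusted p of 0.184 and 2897 genes at an unadjusted p under 0.05 (14.8%). Limma-voom called 0 and DESeq2 323, of which 18 were higher and 305 lower at 48 h. Of the called genes, Fcan01_17452 exceeded its mean effect elsewhere by 1.76 ± 0.44 (SE) log2 units, Fcan01_17957 by 1.52 ± 0.36 and Fcan01_10767 by 0.44 ± 0.46 (edgeR adjusted p = 0.184, 0.184 and 0.578). For Fcan01_27829, Fcan01_01431, Fcan01_17273 and Fcan01_08638 it was 1.99 ± 0.61, 1.44 ± 0.41, 1.35 ± 0.37 and 0.87 ± 0.36 (SE; edgeR adjusted p = 0.187, 0.184, 0.184 and 0.285). With edgeR and limma-voom a difference between 48 h and the other times was therefore not shown for any of the 7. Which genes DESeq2 called in this contrast is not given here.

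The remaining description concerns how many libraries carry a difference, whether or not it was called. In 1954 genes (9.97% of tested genes) the mean log2 CPM differed by at least 1 between treatments, 705 higher and 1249 lower with imidacloprid. They were sorted by fixed limits. A gene was counted as shifted in all 3 exposed libraries if each of these lay at least 1 log2 unit from the control mean and beyond every control. It was counted as set by 1 library if that library alone lay at least 1 log2 unit outside the range of the other treatment while the other 2 of its own treatment lay inside it. Counts over these classes are descriptions without a test.

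Shifts in all 3 exposed libraries were found in 268 of the 1954 genes (13.7%), 74 higher (0.378% of tested genes) and 194 lower (0.990%). With any 1 library left out the class was larger, but fewer libraries then had to meet the limits. A rise over 268 is therefore no measure of dependence on that library, and these runs are set beside each other. Without imidacloprid replicate 3 the class held 1313 genes, 886 higher and 427 lower. Without imidacloprid replicates 5 and 6 in turn it held 401 (95 higher, 306 lower) and 414 (159 higher, 255 lower). Without control replicate 4 it held 922, 103 higher and 819 lower, against 367 without control replicate 2 and 326 without control replicate 6. Single exposed libraries set 79 genes (0.403%), 21 higher and 58 lower. Without control replicate 4, and so with a range set by fewer controls, this number was 29, 17 higher and 12 lower. Of the 79, replicate 5 set 15 higher and 29 lower genes, replicate 3 set 2 and 16, and replicate 6 set 4 and 13. Single control libraries set 102 genes (0.520%), 86 higher and 16 lower with imidacloprid, and control replicate 4 alone accounted for 49 and 11. The remaining 524 higher and 981 lower genes followed other patterns. The genes shifted in all 3 exposed libraries were low in counts, with a median of 0.490 CPM in the higher and 0.786 CPM in the lower ones, against 9.42 CPM over all tested genes.

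**Figure D4:**
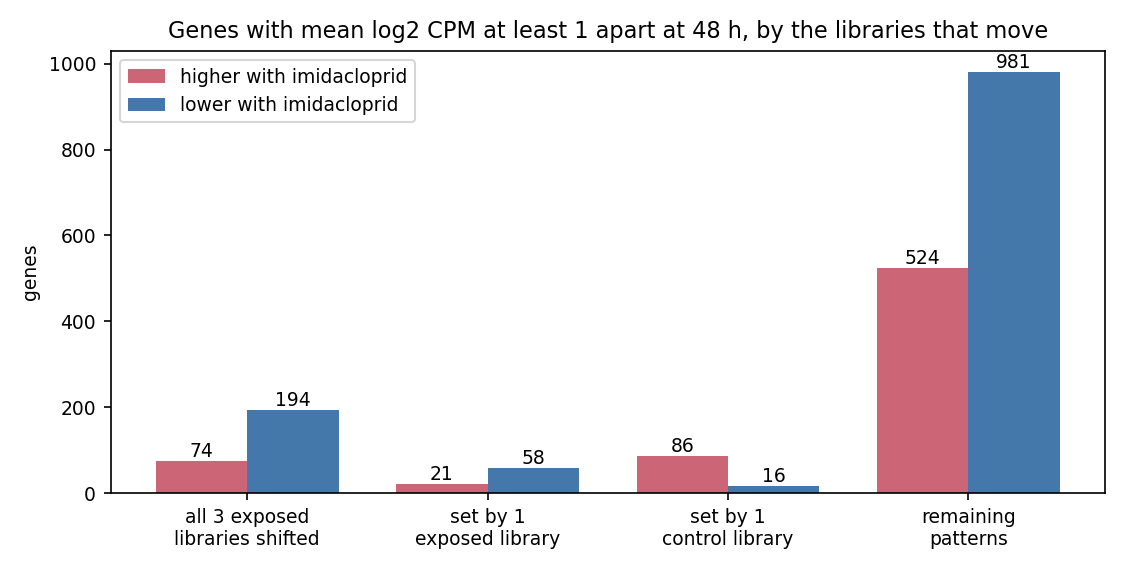
Number of genes (y axis) whose mean log2 CPM differed by at least 1 at 48 h, by the libraries that carry the difference (x axis) and by direction. The 268 genes shifted in all 3 exposed libraries are 74 higher and 194 lower, and most genes, 524 and 981, fall under neither this class nor the single-library classes.

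Single libraries of both treatments also stood alone when all genes of this size were counted, whatever their class. A gene could be counted for an exposed and for a control library. Among the 705 higher genes imidacloprid replicate 5 was the only exposed library at least 2-fold above the controls in 275, against 13 for replicate 3 and 36 for replicate 6. In the same 705 genes a single control was at least 2-fold below the exposed libraries in 176 for control replicate 4, 96 for replicate 6 and 62 for replicate 2. Among the 1249 lower genes imidacloprid replicates 5, 3 and 6 stood alone in 359, 63 and 47, and control replicates 4, 6 and 2 in 42, 101 and 21. In 69 higher genes imidacloprid replicates 5 and 6 were both at least 2-fold above the controls while replicate 3 was within their range. The opposite pattern in the controls took 407 lower genes, in which control replicates 2 and 6 were both at least 2-fold above the exposed libraries and control replicate 4 was within their range.

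The unadjusted p-values also moved when libraries were left out. With fewer libraries a difference of the same size reaches a given p less easily, and these counts do not separate that from the part of a library. Of the 1830 higher genes at an unadjusted p under 0.05, 1608 did not reach it without imidacloprid replicate 5, 424 without replicate 6 and 95 without replicate 3. Without control replicates 4, 6 and 2 in turn, 1243, 916 and 706 did not reach it. In all 6 runs with a library left out, 162 reached it. Of the 989 lower genes, 535 did not reach it without control replicate 6 and 495 without imidacloprid replicate 5, and 226 reached it in all 6. The total of 2819 genes became 814 without imidacloprid replicate 5 and 6127 without replicate 3, 1866 without control replicate 4 and 1762 without control replicate 6.

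Of the 74 genes higher in all 3 exposed libraries, 6 were among the 7 called genes and 24 had a mean of at least 1 CPM. Their mean log2 CPM was -1.21, -1.72 and -1.22 in control replicates 2, 4 and 6 and 0.07, 0.79 and 0.48 in imidacloprid replicates 3, 5 and 6. The 68 that were not called stood at a higher mean in exposed animals in 49 at 60 h and 46 at 72 h, against 57.8% and 50.9% of all genes higher at 48 h. These are 72.1% and 67.6% of the 68. At 36 h it was 33.8%, against 29.5%.

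Among the uncalled genes higher in all 3 exposed libraries at a mean of at least 1 CPM, the largest differences in mean log2 CPM were those of Fcan01_28705 and Fcan01_19858, 4.53 and 3.40. Fcan01_28705 was listed at 0, 0 and 0.579 CPM in control replicates 2, 4 and 6 and at 2.11, 6.33 and 3.18 CPM in the exposed libraries. Its groups did not overlap at 48 h, but they did at the other 5 times. Its control mean was 6.40 ± 6.07 CPM (SD, n = 3) at 12 h, and at 72 h it was listed at 0 in all exposed libraries. In the 48 h contrast its adjusted p was 0.35 (edgeR).

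Fcan01_19858 had 2, 5 and 2 counts in the controls, or 0.0804, 0.168 and 0.0681 CPM, and stood at 0.318, 5.52 and 2.82 CPM with imidacloprid. Its controls lay near the floor, so the size of the difference is uncertain. All 3 exposed libraries were above all controls at 24, 36, 48, 60 and 72 h. The edgeR adjusted p was 0.111 at 48 h and 0.104 at 72 h, and DESeq2 called it at 48 h (adjusted p = 0.000733). EdgeR also called it without imidacloprid replicate 3 (adjusted p = 0.00985) and with the level of the 108 genes in the model (0.0236).

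The 194 genes lower in all 3 exposed libraries followed the co-varying genes. Over the 30 libraries of the other time points, 163 of the 194 (84.0%) had a correlation above 0.8 with the mean level of the 108 genes, against 7.75% of all genes lower at 48 h. Of the 1249 genes lower by at least 1 log2 unit, 637 (51.0%) did so too, and 39 of the 194 belong to the 108. Their mean log2 CPM was 0.62 and 1.61 in control replicates 2 and 6, -1.51 in control replicate 4 and -2.63, -2.57 and -2.56 in the exposed libraries. All controls were above the exposed libraries, but control replicate 4 was within 2-fold of the highest exposed library in 151 of the 194. Controls 2 and 6 were both more than 2-fold above it in 180.

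The direction of these genes changed between times. At 36 h, 157 of the 194 (80.9%) were lower with imidacloprid, against 35.5% of all genes lower at 48 h. The median log2 fold change was -1.12, but only 3 were lower and 2 higher at an unadjusted p under 0.05 (edgeR). At 12 h 189 and at 60 h 188 of the 194 were higher with imidacloprid, 98 and 124 of them at an unadjusted p under 0.05. Of all 8647 genes lower at 48 h, 379 were higher at that p at 12 h and 438 at 60 h, and 35.1% and 65.3% were lower at those times. The libraries in which they were high were imidacloprid replicates 2 and 6 at 12 h (0.26 and 0.61), imidacloprid replicate 3 at 24 h (-0.29) and imidacloprid replicates 3 and 5 at 60 h (0.72 and 0.49). At 72 h they were high in control replicate 5 (1.32) and in imidacloprid replicate 1 and library 71 of replicate 4 (0.28 and 1.43), and at 36 h control replicate 5 was at -0.83. All of these values are mean log2 CPM, and the libraries not named here or above lay between -2.63 and -2.33. High and low libraries occurred in both treatments, and none of the 194 genes was called at 48 h by edgeR. At an unadjusted p under 0.05 (edgeR), 185 of them (95.4%) were lower at 48 h, against 11.4% of all genes lower then. These genes were chosen by their 48 h values, so that share is no separate support.

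**Figure D5:**
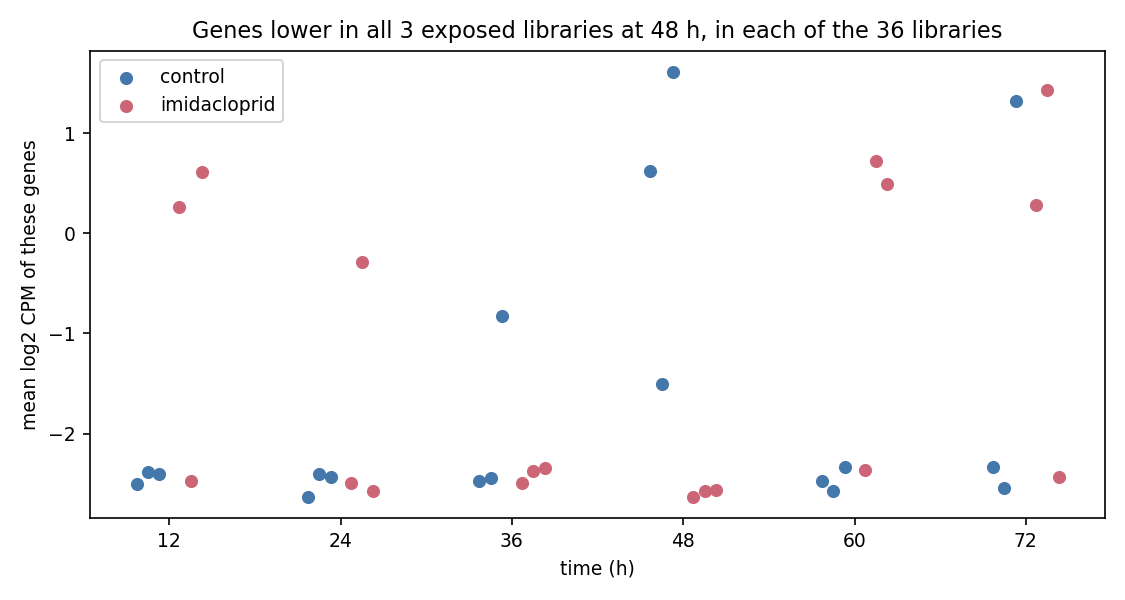
Mean log2 CPM (y axis) of the 194 genes lower in all 3 exposed libraries at 48 h, in each of the 36 libraries by time (h, x axis) and treatment. At 48 h the high libraries are controls, at 0.62 and 1.61, whereas at 12 and 60 h the high libraries are exposed ones.

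Among these genes at a mean of at least 1 CPM, Fcan01_04213 and Fcan01_06243 had the largest differences in mean log2 CPM, -6.67 and -6.08. Fcan01_04213 stood at 22.1, 0.806 and 55.0 CPM in control replicates 2, 4 and 6 and at 0, 0.105 and 0 CPM in imidacloprid replicates 3, 5 and 6, from 0 to 3 counts. Fcan01_06243 stood at 49.0, 0.168 and 69.0 CPM in the controls and at 0.0795, 0.0350 and 0.0806 CPM in the exposed libraries. In both genes control replicate 4 was far nearer to the exposed libraries than to the other controls. At 60 h the order of Fcan01_06243 was the opposite, with 31.2 ± 27.0 CPM (SD, n = 3) in exposed and 0.0471 ± 0.0503 CPM in control animals, and 1 exposed library overlapped the controls. Both had an edgeR adjusted p of 0.321 at 48 h, whereas DESeq2 called both lower (adjusted p = 0.00984 and 0.0417). Their correlations with the 108 genes in the other 30 libraries were 0.98 and 0.99.

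Of the 194, 31 genes did not pass the correlation limit of 0.8 with the co-varying genes, 8 of them at a mean of at least 1 CPM. Missing this limit does not make them independent of the 108 genes. The median correlation of the 31 was 0.58, against -0.26 for all genes lower at 48 h. Of these 8, Fcan01_06823 and Fcan01_14909 are given here and were chosen after their values were seen. Their correlations with the 108 genes in the other 30 libraries were 0.58 and -0.36. Fcan01_06823 stood at 1.49, 1.34 and 2.14 CPM in the controls and at 0.755, 0.350 and 0.0806 CPM in the exposed libraries, the last from 2 counts. Fcan01_14909 stood at 3.02, 1.88 and 1.36 CPM and at 0.835, 0.140 and 0.524 CPM. The groups did not overlap in either gene, and neither passed the test, with log2 fold changes of -2.06 ± 0.74 and -2.06 ± 0.84 (SE; edgeR adjusted p = 0.321 and 0.323). Of the 31 genes, 6 (19.4%) were also lower with imidacloprid at 60 h, 9 (29%) at 72 h and 15 (48.4%) at 36 h. Of all genes lower at 48 h, 65.3%, 58.5% and 35.5% were lower at those times. At 12 h 26 and at 60 h 25 of the 31 were higher with imidacloprid, a reversal also seen in most of the 194.

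Of the genes set by 1 exposed library, 12 of the 58 lower ones (20.7%) followed the co-varying genes, and 0 of the 21 higher ones did. Fcan01_20610 stood at 98.5 CPM in imidacloprid replicate 3 and at 26.0 and 8.62 CPM in replicates 5 and 6, while the controls ranged from 0.121 to 27.4 CPM. Fcan01_10874 had 348 counts, or 12.2 CPM, in imidacloprid replicate 5 and 0 counts in each of the other 5 libraries at 48 h. In the first gene the other 2 exposed libraries lay within the controls, and in the second a single pool held every count.

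Among the lower genes, Fcan01_27134 was listed at 0 CPM in imidacloprid replicate 5 and stood at 12.7 and 11.0 CPM in replicates 3 and 6, within the controls at 7.64, 37.1 and 15.4 CPM. Fcan01_09062 had 1 count in imidacloprid replicate 3 (0.0397 CPM) and stood at 0.245 and 0.443 CPM in the other exposed libraries. Its controls stood at 5.47, 0.168 and 7.80 CPM, again with replicate 4 low, and its correlation with the 108 genes in the other 30 libraries was 0.96. It met the limits of the class by 1 count in imidacloprid replicate 3 against 5 counts in control replicate 4, near the floor. Its log2 fold change was -4.18, and it was -3.74 without imidacloprid replicate 3. Without control replicates 2 and 6, a run added after the data were seen, it was 0.51. The size of its difference thus lay with those 2 controls, not with the exposed library that put it in this class. None of the 79 genes set by 1 exposed library was called by edgeR, and 16 of them had an unadjusted p under 0.05.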

How the data were processed

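The deposited table holds estimated counts per gene model, whole numbers as deposited (0 values were not whole). Per the labels' protocols, TRIzol extracts went into a stranded TruSeq mRNA kit, and the authors trimmed reads with Trim Galore (Cutadapt version given as 0.6.7), assigned them with Salmon 1.4.0 and normalized with DESeq2 1.28.1. The totals differ between libraries, so the counts were treated as not normalized. Which transcriptome release they used is not stated in the labels. Salmon divides reads between similar transcripts, so counts of near-identical copies are uncertain. Of 27231 genes in a RefSeq table of the species, 0 carried an identifier of the deposited table.

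EdgeR 4.0.16 in R 4.3.3 modelled the 36 libraries together, 1 mean per treatment and time (12 groups, 24 residual degrees of freedom), after filterByExpr (minimum count 10, minimum total 15) and TMM scaling, with robust dispersions and Benjamini-Hochberg adjustment over 19600 genes at 0.05. Log2 CPM values use a prior count of 2. Limma 3.58.1 and DESeq2 1.42.0 gave alternatives. The 108 co-varying genes are the largest complete-linkage cluster among those whose log2 CPM variance exceeded 4. Scripts were checked on simulated counts. Both treatments at 48 h share the single replicate number 6, so numbers were not used as pairs. An exact permutation test of 3 against 3 libraries has a smallest p of 0.1. Named genes are the calls, where 10 or fewer, and the 2 largest differences per direction at 1 CPM or more in each of 2 classes. These classes are the uncalled genes shifted in all 3 exposed libraries and the genes set by 1 exposed library. The 2 largest lower differences below the correlation limit were added. No genes set by 1 control library were named, and from the remaining patterns only a called gene was. Members and lists were chosen with earlier results of these data known.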

Additional observations from a re-analysis of the deposited data

How the results depend on the processing

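The 7 calls at 48 h were all kept with DESeq2 size factors, without a filter on low counts and with a filter at 5 CPM in 3 libraries. The number of calls was 53 with DESeq2, 3657 with library-weighted limma-voom, 15 with the mean of the co-varying group as a covariate, 3 without control replicates 2 and 6 and 0 when the 6 libraries of 48 h were fitted by themselves. The replicate block, the replicate number as a term in the fit of all libraries, left 3 calls, and the numbers are not known to pair libraries. Leaving out single libraries gave 3 to 24 calls. For the contrast of 48 h with the other times, DESeq2 called 323 genes, the run without control replicates 2 and 6 called 3, and limma-voom, DESeq2 size factors, the replicate block and each left-out library called 0. The 268 genes shifted in all 3 exposed libraries became 100 at a mean of at least 1 CPM and 525 (281 higher, 244 lower) at a 1.5-fold limit. They became 105 (74 higher, 31 lower) without genes whose correlation with the co-varying group was above 0.8. With single libraries left out they were 326 to 1313, but fewer libraries then had to meet the limits. They were 290 (60 higher, 230 lower) with DESeq2 size factors and 321 (121 higher, 200 lower) at a prior count of 0.5. The 79 genes set by 1 exposed library became 157 at that prior count, 50 at a mean of at least 1 CPM, 517 at the 1.5-fold limit and 29 to 77 without single controls. With the co-varying genes as a covariate the log2 fold changes of Fcan01_06243 and Fcan01_09062 turned to 0.26 and 0.66, and without control replicates 2 and 6 that of Fcan01_09062 turned to 0.51. The cause of these changes was not tested. Runs that left 1 control assume that it varies like the other groups. Runs without control replicates 2 and 6 and without genes that follow the group were chosen after the data were seen. Counts near 3 per library limit the sizes given for low genes.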
